A study of Mus musculus with 6 samples.

Results

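The 32 genes described here belong to glycolysis and to the response of cells to low oxygen, and they were followed across the immune cell classes of a mouse melanoma and across 4 treatment conditions. They were chosen by symbol among the 32285 genes counted in both pools of cells. No rule on their measured values was used, but earlier results of these data were known. Each symbol had 1 entry except Aldoa, whose second entry held few molecules and was left out. Levels are in CPM: the unique molecules (UMIs) of a gene, summed over the cells of 1 class in 1 mouse and scaled to 1000000 UMIs over all genes there. Because single cells of a mouse are not independent, the mouse was the replicate in every comparison.

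Cells came from subcutaneous YUMM1.7 tumours, a mouse melanoma line, in 16 female C57BL/6JRccHsd mice aged 8 weeks. Each mouse received 250000 tumour cells. Antibody was given from about day 7 at 12.5 mg/kg, 2 times a week for 3 weeks, and tumours were harvested on day 28 and sorted for CD45, the surface protein shared by leukocytes. The 4 conditions of 4 mice each were GRf/f mice with isotype control antibody (floxed isotype), GRf/f mice with anti-PD-1 (floxed anti-PD-1), GRf/f-LysMCre mice with isotype (LysM-Cre isotype) and GRf/f-LysMCre mice with anti-PD-1 (LysM-Cre anti-PD-1). All mice carried the floxed allele of the glucocorticoid receptor gene Nr3c1. The Cre is driven from the Lyz2 locus, which is active in monocytes, macrophages and neutrophils, and not in lymphocytes or fibroblasts. Anti-PD-1 blocks an inhibitory receptor of T cells. The design asks whether the response of the tumour's immune cells to this antibody depends on the receptor in myeloid cells. Mouse numbers 1 to 4 below only name the mice, and mice 1 and 2 of each condition were in pool E5 and mice 3 and 4 in pool E6.

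Glycolysis splits glucose to pyruvate, and lactate is made and exported when pyruvate is not burned in mitochondria. The transcription factor HIF-1 is a pair of the Hif1a and Arnt proteins. The Hif1a protein is destroyed while oxygen lets prolyl hydroxylases mark it, and it accumulates in low oxygen. The pair then binds sites with the core letters ACGTG or GCGTG and raises transcription of many glycolysis genes. In tumours, myeloid cells in poorly perfused zones are known to run this programme, and inflammatory signals also raise it.

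The promoters of 4 members are shown because these genes belong to different arms of the response and each was higher in all 7 mice in a monocyte-like cluster described below. Each is the 250 bases before the annotated start in RefSeq (GRCm38.p6), written 5′ to 3′ on the gene's strand. Capitals mark ACGTG or GCGTG read on either strand; CACGTG holds ACGTG on both strands and counts once for each. Bnip3 encodes a receptor for the removal of mitochondria (chr7:138909507-138909756, minus strand), Egln3 an oxygen-sensing prolyl hydroxylase (chr12:54203875-54204124, minus strand), Pgk1 phosphoglycerate kinase (chrX:106186850-106187099, plus strand) and Slc2a1 the main glucose transporter (chr4:119108495-119108744, plus strand).
Bnip3: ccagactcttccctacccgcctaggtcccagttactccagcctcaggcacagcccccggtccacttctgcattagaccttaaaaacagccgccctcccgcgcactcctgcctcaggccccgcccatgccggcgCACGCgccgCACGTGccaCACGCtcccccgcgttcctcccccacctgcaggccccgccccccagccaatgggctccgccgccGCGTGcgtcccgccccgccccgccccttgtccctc
Egln3: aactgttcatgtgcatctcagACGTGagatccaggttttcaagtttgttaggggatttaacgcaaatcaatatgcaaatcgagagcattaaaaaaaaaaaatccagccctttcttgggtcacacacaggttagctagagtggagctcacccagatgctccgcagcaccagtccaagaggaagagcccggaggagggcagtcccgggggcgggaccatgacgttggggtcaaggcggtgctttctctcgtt
Pgk1: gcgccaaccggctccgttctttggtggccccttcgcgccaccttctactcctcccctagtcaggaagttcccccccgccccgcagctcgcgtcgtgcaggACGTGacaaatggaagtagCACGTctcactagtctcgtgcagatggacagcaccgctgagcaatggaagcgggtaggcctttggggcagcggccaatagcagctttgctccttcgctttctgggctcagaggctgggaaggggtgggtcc
Slc2a1: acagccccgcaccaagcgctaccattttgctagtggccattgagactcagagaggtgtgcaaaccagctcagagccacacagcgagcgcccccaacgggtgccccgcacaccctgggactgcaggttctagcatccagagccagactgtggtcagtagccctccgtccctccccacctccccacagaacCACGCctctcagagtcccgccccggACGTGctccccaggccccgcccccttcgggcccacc
The Bnip3 window held 5 matches, those of Pgk1 and Slc2a1 held 2 each, and that of Egln3 held 1. Of the 44 windows of the members, which cover 30 genes with 1 or more start sites each, 33 (75.0%) held a match. Among all 32851 windows of the same length the share was 38.6%. For ACGTG alone the shares were 40.9% and 16.6%. Gpi1, Tpi1 and Mif had no match in their windows, which says only that these letters are not there. Ndrg1 and Bnip3l are named without a window. A match is a description of the sequence and not evidence of binding in these cells.

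In all, 17203 cells were assigned to 1 mouse by their hashtag antibody, from 146 to 3098 cells and from 1782093 to 29701640 UMIs per mouse. The pools shared 805 barcodes, and 741 shallow copies in pool E5 (median 647 UMIs, against 53802 for the same barcodes in E6) were removed before anything else was computed. Classes were named from fixed markers after clustering without the 32 genes, and 523 cells in 4 clusters stayed unnamed. The fibroblast-like class, which the CD45 sort should have left out, had Ptprc, the gene of CD45, at 60.5 ± 39.8 CPM (SD, n = 14 mice) against 851 ± 109 in monocyte-like cells (n = 16). Whether this class holds tumour cells was not tested. Nr3c1 in monocyte-like cells lay between 63.6 and 75.8 CPM in floxed isotype mice, and between 46.4 and 69.6 in the floxed mice given anti-PD-1. With LysM-Cre it lay between 39.4 and 68.5 under isotype and between 24.3 and 42.2 under anti-PD-1. The LysM-Cre isotype mice therefore overlapped the floxed mice, and the LysM-Cre anti-PD-1 mice did not. Because 3′ tags outside an excised part are still counted, this level does not measure the deletion.

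Across 11 classes, the 32 genes together took the largest share of UMIs in monocyte-like cells, 1.02 ± 0.18% (SD, n = 16 mice). Regulatory T-like cells followed at 0.903 ± 0.177% (n = 9), then the cluster intermediate between monocytes and macrophages at 0.844 ± 0.131% (n = 15), neutrophil-like cells at 0.828 ± 0.194% (n = 15) and fibroblast-like cells at 0.744 ± 0.083% (n = 14). Macrophage-like cells reached 0.692 ± 0.103% (n = 16), cDC2-like dendritic cells 0.584 ± 0.102% (n = 10) and the mast or basophil-like class 0.533 ± 0.036% (n = 3), and CD8 T-like, CD4 T-like and NK-like cells lay lowest at 0.515 ± 0.074% (n = 15), 0.460 ± 0.094% (n = 12) and 0.455 ± 0.054% (n = 14). Neighbours in this order differed by less than the larger of their SDs, except macrophage-like and cDC2-like cells, whose ranges overlapped (5387 to 8585 and 4846 to 7855 CPM for the sum). By contrast, monocyte-like and NK-like cells did not overlap: the lowest monocyte-like value was 8307 CPM for the sum and the highest NK-like value 5277 CPM. By single gene, 12 members had their highest mean in neutrophil-like cells, 9 in monocyte-like and 6 in regulatory T-like cells. Neutrophil-like cells are shallow, with a median of 2889 UMIs per cell against 10687.5 in monocyte-like cells, and their levels rest on fewer molecules.

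**Figure D1:**
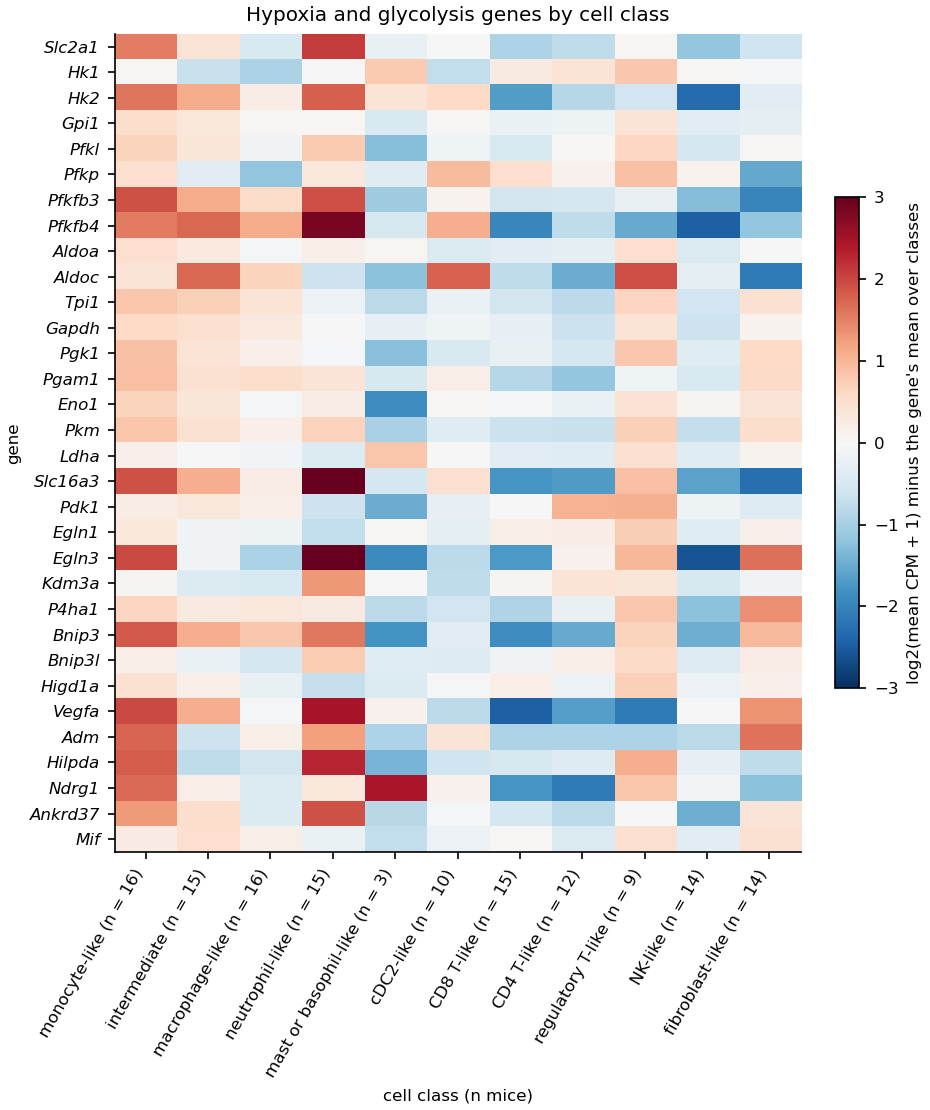
Level of each of the 32 genes (vertical axis) in each of 11 cell classes (horizontal axis, with the number of mice). Colour is log2 of the mean CPM plus 1, minus the mean of that gene over the classes, limited to between -3 and 3; the mast or basophil-like class rests on 3 mice. Red cells gather in the monocyte-like and neutrophil-like columns for Vegfa, Hilpda, Slc2a1 and Slc16a3, and blue cells in the lymphoid columns.

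At the entry of glucose, Slc2a1 was highest in neutrophil-like cells, 223 ± 64 CPM against 153 ± 59 in monocyte-like cells, in 12 of the 15 mice with both classes, and lowest in NK-like cells (22.5 ± 8.2). Hk2, the inducible hexokinase that traps glucose in the cell, was at 240 ± 128 in neutrophil-like and 209.5 ± 35.5 in monocyte-like cells, an order held in 6 of 15 mice, and lowest in NK-like cells (13.0 ± 7.4). Hk1, its widely expressed relative, showed another order: regulatory T-like cells were highest (72.2 ± 14.998) and macrophage-like cells lowest (20.8 ± 5.9). Hk2 was thus lowest in a lymphoid class and Hk1 in a myeloid one.

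Phosphofructokinase commits sugar to glycolysis. Its subunit Pfkl was highest in neutrophil-like cells (78.5 ± 46.4 CPM), close to monocyte-like cells (72.2 ± 13.3), and lowest in the mast or basophil-like class (18.1 ± 10.9, n = 3). The subunit Pfkp was highest in cDC2-like dendritic cells (178 ± 40, n = 10) and regulatory T-like cells (170 ± 41) and lowest in fibroblast-like cells (31.2 ± 10.5). Pfkfb3 and Pfkfb4 make and remove a sugar that activates phosphofructokinase. Pfkfb3 did not separate neutrophil-like (92.9 ± 33.1) from monocyte-like cells (90.9 ± 40.2) and was lowest in fibroblast-like cells (5.26 ± 2.63), whereas Pfkfb4 was higher in neutrophil-like cells (105.5 ± 23.8) than in the intermediate cluster (48.1 ± 12.5) in 14 of 14 mice and lowest in NK-like cells (1.73 ± 1.48).

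Among the middle and lower enzymes, monocyte-like cells were highest for Gpi1, the isomerase after hexokinase (426 ± 58 CPM), Tpi1, triosephosphate isomerase (543 ± 116), Pgk1 (542 ± 107), Eno1, enolase (470 ± 100), and Pkm, pyruvate kinase (1097 ± 222). Each of these 5 was lowest in the 3 mice with a mast or basophil-like class, between 80.9 ± 10.7 for Eno1 and 314 ± 106 for Pkm. Gapdh (2380 ± 409) and Pgam1, phosphoglycerate mutase (515 ± 99), were also highest in monocyte-like cells, and both were lowest in CD4 T-like cells (1004 ± 213 and 122 ± 42).
The aldolase Aldoa was level between regulatory T-like (882 ± 147) and monocyte-like cells (880.1 ± 184.5) and lowest in NK-like cells (454 ± 80), while Aldoc, its sparse relative, reached 39.0 ± 15.2 in regulatory T-like and 1.41 ± 1.04 in fibroblast-like cells.

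At the exit, Ldha, which makes lactate, was highest in the mast or basophil-like class (997 ± 47 CPM, n = 3) and in regulatory T-like cells (779 ± 206), and lowest in neutrophil-like cells (418 ± 155). Slc16a3, the lactate exporter, was at 503 ± 107 in neutrophil-like against 197 ± 31 in monocyte-like cells, higher in 15 of 15 mice, and at 9.97 ± 7.71 in fibroblast-like cells. Pdk1, a kinase that closes the entry of pyruvate into mitochondria, was at 64.2 ± 28.9 in regulatory T-like and 63.1 ± 19.1 in CD4 T-like cells and at 10.1 ± 3.8 in the mast or basophil-like class. In neutrophil-like cells the lowest mean Ldha level thus stood beside the highest mean Slc16a3 level of any class. Against monocyte-like cells, however, Ldha did not pass the test used below (log2 -0.25 ± 0.12 SE, edgeR adjusted p = 0.0593).

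Among the oxygen sensors, which are themselves targets of HIF-1, Egln3 spanned the widest range of those that could be measured in every class: 114 ± 84 CPM in neutrophil-like cells, 45.1 ± 27.1 in monocyte-like cells and 0.94 ± 1.35 in NK-like cells. Egln1, the main sensor in most tissues, was highest in regulatory T-like cells (115 ± 36), above monocyte-like cells in 9 of 9 mice, and lowest in neutrophil-like cells (40.2 ± 23.8). The 2 sensors were therefore at opposite ends in neutrophil-like cells. Hif1a itself was highest in regulatory T-like cells (755 ± 113), with 379 ± 97 in CD4 T-like, 302 ± 52 in monocyte-like, 263 ± 80 in neutrophil-like and 108 ± 24 in macrophage-like cells. Epas1, which encodes the related factor HIF-2, stayed at or below a mean of 13.8 CPM in every class.

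The secreted factors and the remaining targets were mostly myeloid. Vegfa, which drives vessel growth, was at 156 ± 114 CPM in neutrophil-like and 110 ± 40 in monocyte-like cells (the order held in 11 of 15 mice) and at 4.11 ± 3.66 in CD8 T-like cells. Hilpda, which slows the breakdown of lipid droplets, was at 180 ± 102 and 128 ± 69 in the same myeloid classes (12 of 15 mice) and lowest in the mast or basophil-like class (13.0 ± 10.6). Ankrd37 (78.8 ± 51.4) and the histone demethylase gene Kdm3a (60.3 ± 28.2) were highest in neutrophil-like cells and lowest in NK-like (6.70 ± 5.38) and cDC2-like cells (13.6 ± 8.8). Bnip3 was highest in monocyte-like cells (148 ± 68) and lowest in CD8 T-like cells (10.4 ± 6.2), and its relative Bnip3l was highest in neutrophil-like (221 ± 59) and lowest in macrophage-like cells (90.6 ± 19.998). Both encode mitophagy receptors.

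The other profiles differed. Ndrg1, a stress-induced gene, was highest in the 3 mice with a mast or basophil-like class (183 ± 63 CPM), then in monocyte-like cells (108.5 ± 74.6), and lowest in CD4 T-like cells (6.66 ± 6.13). P4ha1, a subunit of the enzyme that hydroxylates collagen, was highest in fibroblast-like cells (141 ± 35) and lowest in NK-like cells (22.6 ± 9.8). Higd1a, a small mitochondrial protein gene, ran from 253.5 ± 71.3 in regulatory T-like to 95.3 ± 55.5 in neutrophil-like cells, and the cytokine gene Mif from 680.0 ± 146.6 in the intermediate cluster to 289.7 ± 70.3 in the mast or basophil-like class. Adm, which encodes the vasodilator adrenomedullin, was near the limit of detection, at 5.4 ± 13.9 in monocyte-like cells, and had no UMI in CD8 T-like, CD4 T-like, regulatory T-like and mast or basophil-like cells. For CD4 T-like cells, 0 of 2733780 UMIs allows a level of up to 1.10 CPM (3 counts, counting error only).

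Macrophage-like cells had lower levels of nearly all members than monocyte-like cells of the same mouse. In 16 mice with both classes, 29 of the 31 members tested were lower, none was higher, and Pdk1 and Aldoc did not pass the test (edgeR quasi-likelihood test on summed counts with the mouse as block, Benjamini-Hochberg adjusted p under 0.05 over all 8894 genes tested). Over all genes 32.7% were lower and 36.4% higher, with a median log2 difference of 0.04, against -0.84 for the members. DESeq2 also called none higher. The difference was greatest for Egln3 (log2 -3.29 ± 0.25 SE, adjusted p = 4.597e-11), Hilpda (-2.48 ± 0.17, 6.654e-12), Vegfa (-2.36 ± 0.23, 3.598e-09), Ndrg1 (-2.27 ± 0.16, 1.452e-11) and Slc2a1 (-2.15 ± 0.13, 2.053e-12). It was least, among those called, for Mif (-0.22 ± 0.08, 0.01505) and Ldha (-0.37 ± 0.07, 4.076e-05). Without the monocyte-like cluster described below, 28 members were lower and none higher by edgeR in 15 mice, and Mif did not pass. Among all 8792 genes of that fit, 2958 were lower and 2978 higher. The difference was then -0.75 for Hilpda, -1.93 for Egln3 and -1.23 for Ndrg1.

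Neutrophil-like cells split the list. Of 30 members tested in 15 mice, 11 were higher than in monocyte-like cells, 7 lower, and 12 did not pass, beside 31.9% higher and 42.8% lower among all 6419 genes. The higher ones were led by Egln3 (log2 1.73 ± 0.22 SE, edgeR adjusted p = 2.101e-08), Slc16a3 (1.71 ± 0.12, 2.621e-14), Pfkfb4 (1.71 ± 0.13, 1.104e-13) and Kdm3a (1.42 ± 0.15, 6.396e-10). The lower ones were Ndrg1 (-0.999 ± 0.23, 0.0002765), Egln1, Higd1a, Tpi1, Pgk1, Pdk1 and Gapdh, the last at -0.28 ± 0.10. With DESeq2, whose size factors and model both differ from those of edgeR, the median of all genes moved from -0.20 to -0.50, 1527 of 4968 called genes were higher in place of 2047 of 4794, and the members divided into 9 higher and 14 lower. The split of the members in this pair of classes therefore differed between the tools. Without the monocyte-like cluster described below, 15 members were higher and 4 lower by edgeR in 14 mice. Among all 6403 genes of that fit, 2062 were higher and 2708 lower.

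CD8 T-like cells were lower than monocyte-like cells for 26 of 31 members, with none higher by edgeR or DESeq2 in 15 mice (39.7% of 8196 genes were lower and 39.1% higher). The median of the members was -1.27, and the difference was greatest for Vegfa (log2 -4.63 ± 0.18 SE, edgeR adjusted p = 1.466e-18). Egln1, Kdm3a, Pfkp, Pdk1 and Hk1 did not pass the test. Fibroblast-like cells were lower for 26 of 31 members in 14 mice and higher for P4ha1 alone (0.50 ± 0.09, 4.397e-05), beside 37.7% lower and 45.3% higher among 9689 genes, and the member median was -0.66. Because the classes were formed from other genes of the same cells, most genes differed between them, and the shares called are large over all genes as well.

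In monocyte-like cells of floxed mice, the members were higher with anti-PD-1 than with isotype in nearly every case, but 1 gene passed the adjusted test. Ndrg1 was at 49.996, 76.4, 60.2 and 41.999 CPM in the 4 isotype mice and at 342, 206, 128 and 141 CPM in the 4 anti-PD-1 mice. The groups did not overlap, and the 2 anti-PD-1 mice of pool E5 were highest. The log2 difference was 1.89 ± 0.28 (SE, edgeR adjusted p = 0.03918), and Ndrg1 was the only gene called of 8839 (0.0113%). The difference was 2.11 within pool E5 and 1.39 within E6. With 1 mouse left out at a time, Ndrg1 passed in 7 of 16 fits, and its difference lay between 1.43, when mouse 1 of the floxed anti-PD-1 condition was left out, and 2.10. With a monocyte-like cluster described below removed, it was 0.88 and did not pass, nor did it pass with another hashtag rule (1.86).

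Hilpda was at 68.9, 38.2, 75.2 and 74.1 CPM in floxed isotype and at 276, 209, 149.95 and 163 CPM in floxed anti-PD-1 mice, again without overlap (log2 difference 1.75 ± 0.35 SE, edgeR adjusted p = 0.2125). Aldoa was at 726, 791, 702 and 712 CPM against 1361, 1174, 801 and 869.7 CPM, also without overlap (0.55 ± 0.14, 0.2138). Pkm was at 1162, 1102, 979 and 761.5 CPM against 1685, 1435, 1220 and 1038 CPM (0.47 ± 0.12, 0.2138). For Pkm, anti-PD-1 mouse 4 lay below isotype mice 1 and 2, and the groups overlapped. Within pools, the differences were 2.18 and 1.07 for Hilpda, 0.74 and 0.24 for Aldoa, and 0.46 and 0.37 for Pkm.

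Over the list, 30 of 31 tested members were higher and Pfkfb4 was lower. At an unadjusted p under 0.05, 22 members were higher and 1 lower, beside 5.54% of all genes higher and 4.59% lower. The member median was 0.47 against -0.01 for all genes, and 26 of 31 members were higher in both pools. Besides Ndrg1, Hilpda and Aldoa, the groups did not overlap for Gapdh, Pgam1 and Mif, 6 of 31 members, all higher with anti-PD-1, beside 1.69% of all genes. DESeq2 called 5 members (Ndrg1, Hilpda, Aldoa, Pkm and Pgam1) among 42 genes called in all. Markers moved too: the summed level of the 8 monocyte markers lay between 9680 and 12209 CPM in isotype and between 7084 and 10373 in anti-PD-1 mice, and that of the 10 macrophage markers between 5710 and 10841 against 5087 and 6998. Their part in the result was not tested. The 8 neutrophil markers, all detected, summed to 426 to 2495 against 205 to 3192 CPM. Depth and mitochondrial share per mouse overlapped between the groups, with medians of 8345 to 11448.5 and 8377 to 10782 UMIs per cell.

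**Figure D2:**
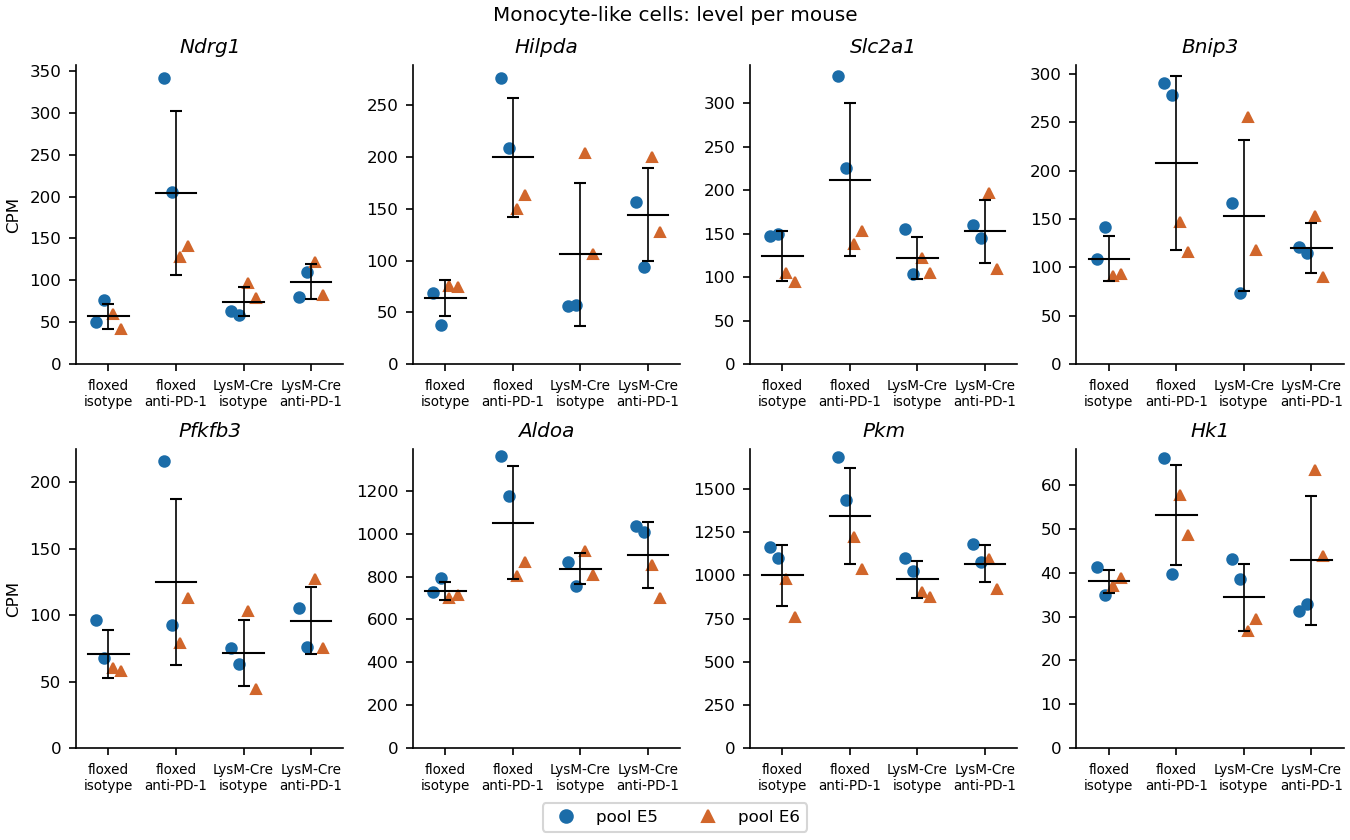
Level (CPM, vertical axis from 0) of 8 genes in monocyte-like cells of each mouse, by condition; circles are mice of pool E5 and triangles mice of pool E6, with bars at the mean ± SD of 4 mice. For Ndrg1 and Hilpda every floxed anti-PD-1 mouse lies above every floxed isotype mouse, and the LysM-Cre groups overlap.

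In LysM-Cre mice the same comparison gave a median near 0. By edgeR 0 of 31 members passed the adjusted test (0.0% of all 8839 genes), 0 had an unadjusted p under 0.05 (5.24% of all genes), and DESeq2 called 0. Of the members, 17 were higher with anti-PD-1 and the median difference was 0.02; 23 were higher in pool E5 and 9 in pool E6. Slc2a1 had the smallest p: it was at 156, 104, 122 and 105 CPM with isotype and at 160, 145, 197 and 109.6 CPM with anti-PD-1 (log2 difference 0.40 ± 0.23 SE, edgeR adjusted p = 0.9763). The groups overlapped. Pfkfb3 was at 75.1, 63.6, 103 and 44.6 CPM against 105, 75.8, 127 and 75.2 CPM (0.54 ± 0.32, 0.9784), Hilpda at 56.3, 56.9, 203.5 and 106.5 CPM against 156, 93.5, 199.6 and 128 CPM (0.58 ± 0.35, 0.9784) and Hk1 at 43.1, 38.5, 26.7 and 29.4 CPM against 31.2, 32.8, 63.4 and 43.9 CPM (0.37 ± 0.23, 0.9784). All 3 overlapped.
Ndrg1 was at 64.0, 58.9, 96.8 and 78.7 CPM with isotype and 79.9, 109.9, 122 and 82.7 CPM with anti-PD-1, so that every LysM-Cre anti-PD-1 mouse lay below every floxed anti-PD-1 mouse.

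The difference between the genotypes in their response was tested directly. By edgeR 0 members passed (0.0% of genes); 10 had an unadjusted p under 0.05, all with a smaller response in LysM-Cre mice (1.95% of all genes in that direction), 30 of 31 had that sign, the median was -0.42, and DESeq2 called 0. Ndrg1 had an interaction of -1.42 (unadjusted p = 0.002604, edgeR adjusted p = 1.0). The genotypes' responses were therefore not shown to differ for any single member. Between genotypes given anti-PD-1, 0 members passed (0.0%; DESeq2 0), 9 were lower in LysM-Cre mice at an unadjusted p under 0.05 (3.24% of all genes) and the median was -0.37. Between genotypes given isotype 0 passed (0.0%; DESeq2 0), and 0 had an unadjusted p under 0.05 (3.54%). Leaving out floxed anti-PD-1 mouse 1 reduced the 10 to 2, the 9 to 2 and, in floxed mice, the 23 members at an unadjusted p under 0.05 to 9. Shares over all genes are not given for that fit.

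With the genotypes averaged, Ndrg1 rose by a log2 difference of 1.18 (edgeR adjusted p = 0.02864) in monocyte-like cells, 1 of 7 genes called (0.0792%). This call was kept in 7 of 16 fits that left out 1 mouse. It was lost without the pool term (1.19), with another hashtag rule (1.15) and without the monocyte-like cluster described below (0.32). The fit without that cluster also lacked mouse 2 of the floxed anti-PD-1 condition. The share of monocyte-like cells with at least 1 Ndrg1 UMI, after thinning each cell to 3000 UMIs, was 11.1 ± 2.3% in floxed isotype, 27.9 ± 10.9% in floxed anti-PD-1 mice, and with LysM-Cre 16.1 ± 2.9% under isotype and 15.7 ± 4.4% under anti-PD-1 (SD, n = 4), with 17 to 48 shallower cells left out per condition. Unthinned shares were 27.7%, 44.4%, 35.0% and 35.2%. In CD8 T-like cells, which carry little Ndrg1 (median depth 5774 UMIs per cell, against 10687.5 in monocyte-like cells), the mean thinned shares were 1.60% to 2.69%.

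Within the monocyte-like class, 1 cluster of 472 cells stood apart. It was led by Slpi, Mmp12, Cxcl3 and Inhba and was formed without the 32 genes. Other genes induced by low oxygen were not left out of the clustering as a group. The cluster was singled out after its values were seen, so its levels are a description without a test. In the 7 mice with at least 20 of its cells, 25 of the 32 members were higher in it than in the other monocyte-like cells of the same mouse in every mouse, 1 was lower in every mouse, and the median ratio was 2.11. No share over all genes stands beside these counts, so they do not set the members apart from other genes. Hilpda was at 703 ± 124 CPM against 30.1 ± 16.4 (SD, n = 7), Egln3 at 189 ± 67 against 14.7 ± 8.2, and Ndrg1 at 414 ± 199 against 50.7 ± 19.3. The lowest Hilpda level in the cluster, 555, lay above the highest outside it, 60.9.
The ratio of means was 5.93 for Vegfa, 5.14 for Bnip3, 4.61 for Pfkfb3 and 4.39 for Slc2a1, while the abundant enzymes Gapdh and Pkm stood at 2.06 and 1.91. Pfkfb4 was lower in the cluster (19.7 ± 9.3 against 41.7 ± 8.0 CPM), and Aldoc did not separate (8.83 ± 4.45 against 10.8 ± 3.9). Among the monocyte-like cells of these mice, Adm had 133 UMIs in the cluster and 5 outside it. Hif1a was at 449 ± 107 against 279 ± 61 CPM.

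The share of this cluster among monocyte-like cells was 8.68%, 3.30%, 7.30% and 1.27% in floxed isotype mice and 40.0%, 35.7%, 11.2% and 8.43% in floxed anti-PD-1 mice, where mouse 2 had only 28 monocyte-like cells. It was 2.22%, 5.92%, 15.3% and 6.78% under isotype and 15.1%, 11.6%, 20.1% and 16.6% under anti-PD-1 with LysM-Cre. In both genotypes the anti-PD-1 mean was higher (23.8 ± 16.3 against 5.14 ± 3.44, and 15.8 ± 3.5 against 7.54 ± 5.51, SD, n = 4), and the ranges overlapped in both. With these cells removed, edgeR called 0 members in floxed mice (0 of 8781 genes). At an unadjusted p under 0.05 there were 7 members in place of 23, beside 6.26% of all genes in place of 10.1%. The member median fell to 0.23, and Ndrg1 had a difference of 0.88 (edgeR adjusted p = 0.4855). The removal left mouse 2 of the floxed anti-PD-1 condition with fewer than 20 monocyte-like cells, so the fit lost that mouse too. The parts of the removed cells and of the lost mouse were not separated. In LysM-Cre mice without the cluster, the Hilpda difference turned from 0.58 to -0.51.

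**Figure D3:**
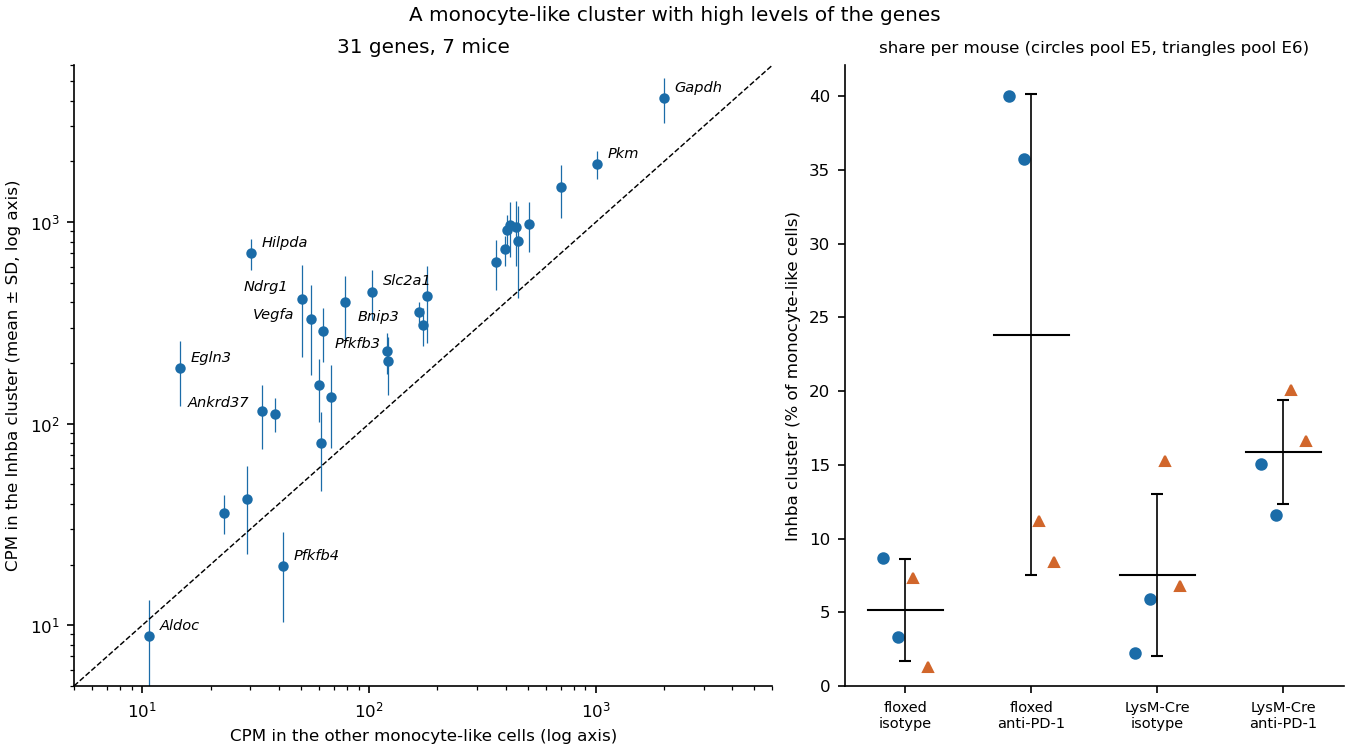
Left, mean CPM of 31 genes in the cluster led by Slpi, Mmp12, Cxcl3 and Inhba (vertical log axis, with SD over 7 mice) against the other monocyte-like cells of the same mice (horizontal log axis), with a dashed line of equality; Hilpda, Egln3 and Ndrg1 lie farthest above it and Pfkfb4 below it. Right, share of the cluster among monocyte-like cells in each mouse by condition, with bars at the mean ± SD; mice 1 and 2 of the floxed anti-PD-1 condition lie at 40.0% and 35.7%.

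In macrophage-like cells 1 member passed the adjusted test. With the genotypes averaged, Pkm rose by a log2 difference of 0.41 ± 0.07 (SE, edgeR adjusted p = 0.02646), 1 of 24 genes called of 9702 (0.247%). Pkm was at 593, 731, 621 and 631 CPM in floxed isotype and 820.1, 808, 859 and 785 CPM in floxed anti-PD-1 mice. With LysM-Cre it was at 482, 588, 566 and 527 CPM under isotype and 716, 771, 693 and 723 CPM under anti-PD-1. The groups did not overlap in either genotype, and both pools showed the difference (0.30 and 0.39 in floxed, 0.47 and 0.37 in LysM-Cre mice). The share of all genes without overlap was not counted in these cells. The call was kept in 11 of 16 fits that left out 1 mouse, where the difference lay between 0.38 and 0.44. It was lost with another hashtag rule (0.34, edgeR adjusted p = 0.08696), with shallow copies kept (0.38, 0.06043) and with the top 5% of doublet scores removed (0.40, 0.0524). Median depth per mouse ran higher with anti-PD-1, with overlapping ranges. It was 7504 to 12080 UMIs per cell in floxed isotype and 11468 to 17815.5 in floxed anti-PD-1 mice. With LysM-Cre it was 8805.5 to 12867 under isotype and 12055.5 to 14925 under anti-PD-1. The part of depth was not tested. In these cells the genes Cd3d and Cd3g of the T cell receptor complex were lower with anti-PD-1 in the same fit (-2.23 and -2.38), and the 6 CD8 T markers, all detected, summed to 29.3 to 80.0 CPM in floxed isotype, 4.63 to 10.2 in floxed anti-PD-1 mice, and with LysM-Cre to 13.4 to 52.5 under isotype and 6.72 to 13.0 under anti-PD-1. Their part in the result was not tested.

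Within floxed mice alone, edgeR called 0 members in macrophage-like cells (5 of 9702 genes in all, 0.0515%), and DESeq2 called 2 (Gapdh and Pkm) among 102 genes called in all. At an unadjusted p under 0.05, 6 members were higher and 2 lower (6.74% and 6.97% of all genes), 21 of 31 were higher, and the median was 0.16. Gapdh was at 1860, 1999, 1714 and 1636 CPM with isotype and 2527, 2045, 2219 and 2288.5 CPM with anti-PD-1 (log2 difference 0.38 ± 0.11 SE, edgeR adjusted p = 0.1717), without overlap. Aldoa was at 502, 567.5, 503 and 567 against 702, 650.1, 736 and 746 CPM (0.45 ± 0.16, 0.2409), also without overlap. Kdm3a went the other way, from 18.4, 14.995, 15.6 and 25.8 to 9.93, 12.3, 10.97 and 13.9 CPM (-0.60 ± 0.22, 0.2375), and its groups did not overlap. How many of all genes did not overlap in macrophage-like cells was not counted, so these groups do not set the members apart from other genes. For Pkm the difference in floxed mice was 0.39 ± 0.10 (adjusted p = 0.1161).

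Within LysM-Cre mice, 0 members passed in macrophage-like cells (0.0% of genes), and DESeq2 called 1 (Pkm) among 3 genes called in all. By edgeR 9 were higher at an unadjusted p under 0.05 (2.5% of all genes), with a median of 0.33 and 28 of 31 higher. In either direction, 4.89% of all genes reached that level. The 9 became 3 with another hashtag rule (5.65% of all genes), 4 with shallow copies kept (3.73%) and 15 without a filter on low counts (5.68%). They became 5 without mouse 2 of the LysM-Cre anti-PD-1 condition and 20 without mouse 3 of the LysM-Cre isotype condition. Shares over all genes are not given for the fits that left out a mouse. Pkm had a difference of 0.44 ± 0.10 (SE, edgeR adjusted p = 0.4184). Aldoc was at 11.9, 12.5, 9.4 and 5.2 CPM with isotype and 22.1, 31.5, 19.7 and 10.3 CPM with anti-PD-1 (1.28 ± 0.30, 0.4184), and mouse 4 of the anti-PD-1 group lay among the isotype mice. Slc16a3 was at 44.8, 30.6, 37.9 and 32.1 against 49.9, 77.5, 42.8 and 82.6 CPM (0.84 ± 0.27, 0.8194), and Ndrg1 at 6.0, 12.1, 20.1 and 10.7 against 15.4, 20.4, 28.9 and 53.4 CPM (1.11 ± 0.36, 0.8539). Both overlapped. Between the genotypes' responses 0 members passed (0.0%; DESeq2 0), and Kdm3a and Pfkp had an unadjusted p under 0.05, both with the larger value in LysM-Cre mice (3.49% of all genes in that direction). Between genotypes, 0 passed with isotype (0.0%; 3 were lower in LysM-Cre mice at an unadjusted p under 0.05, beside 1.45% of genes) and 0 with anti-PD-1 (0.0%; 3 were higher, beside 6.27%), and DESeq2 called 0 in both.

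**Figure D4:**
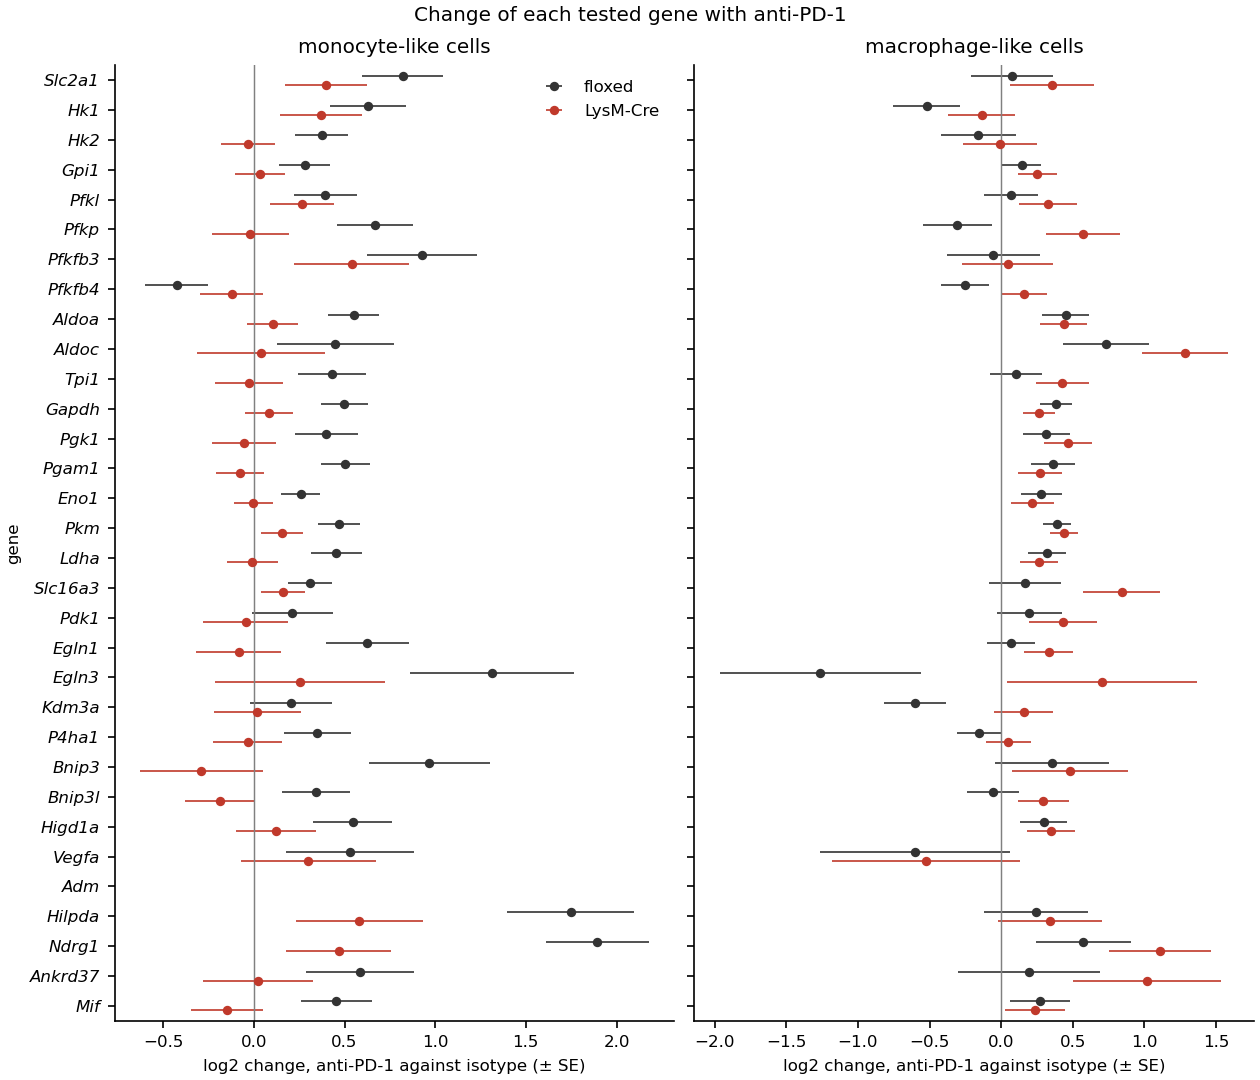
Log2 difference between anti-PD-1 and isotype (horizontal axis, with SE) of each tested gene (vertical axis) in monocyte-like cells (left) and macrophage-like cells (right); dark points are floxed and red points LysM-Cre mice. In monocyte-like cells 30 of 31 dark points lie right of 0 and the red points scatter around 0.

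In the other classes edgeR called 0 members in any comparison that could be fitted, and so did DESeq2, and from 0 to 5 members had an unadjusted p under 0.05. Over all genes edgeR called 0.0% in neutrophil-like, NK-like, CD4 T-like and cDC2-like cells. In fibroblast-like cells it called 0.0386% in floxed mice and 0.0676% with the genotypes averaged, and in CD8 T-like cells 0.0139% in LysM-Cre mice and between genotypes given anti-PD-1. It called 0.0638% in regulatory T-like cells between genotypes with isotype, and in the intermediate cluster 0.0264% in floxed mice and between genotypes given anti-PD-1. In neutrophil-like cells of floxed mice Tpi1 (log2 difference 1.13), Hilpda (1.47), Hk2 (0.95) and Ldha (0.72) were higher with anti-PD-1 at an unadjusted p under 0.05, 4 of 26 members tested, beside 2.79% of all genes higher. In LysM-Cre mice 0 had such a p (3.7% of all genes). In CD8 T-like cells Pdk1 had the smallest adjusted p, at a difference of -0.97 ± 0.23 (SE, edgeR adjusted p = 0.1476) with the genotypes averaged. In fibroblast-like cells it was Pfkp, at 0.65 ± 0.18 (0.198). In CD4 T-like cells, where only the genotypes with isotype could be compared, 5 of 19 members, all enzymes of glycolysis (Tpi1, Hk2, Ldha, Aldoa and Pgam1), were lower in LysM-Cre mice at an unadjusted p under 0.05, beside 3.19% of all genes.

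Related genes outside the list were counted in the same fits. In monocyte-like cells of floxed mice no gene of the related lists passed, 11 of 22 other genes induced by low oxygen were higher with anti-PD-1 at an unadjusted p under 0.05 (median 0.59), against 0 higher and 1 lower of 8 other glycolysis enzymes, 1 of 33 genes of oxidative phosphorylation and 0 of 8 oxygen-sensing genes. Of 12 genes raised by tissue dissociation, 4 were higher (median 0.22). In macrophage-like cells of floxed mice 15 of 33 oxidative phosphorylation genes were higher at that level, all 33 had that sign, and the median was 0.24. Hif1a did not pass in either class: its log2 difference was 0.02 ± 0.17 (SE) in floxed and 0.14 ± 0.17 in LysM-Cre monocyte-like cells, and -0.23 ± 0.20 and 0.24 ± 0.21 in macrophage-like cells (edgeR adjusted p = 0.9994, 1.0, 0.6562 and 0.9999). Epas1 had too few counts to be tested. In the intermediate cluster Hk3, a hexokinase of myeloid cells, rose with the genotypes averaged (0.77, edgeR adjusted p = 0.04441), 1 of 7 genes called (0.0926%).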

How the data were processed

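CITE-seq libraries of 2 pools of 8 hashtagged mice each were deposited by the authors as count matrices: whole-number counts of unique molecules per gene and barcode, made with Cell Ranger 6.1.2 per the file headers (3.0.1 per the submitters' processing notes) on mm10. Hashtag and antibody counts sit in the same matrices, with 88 antibodies listed and 89 stated. Barcodes with at least 500 UMIs, 200 genes and at most 10% mitochondrial UMIs were kept, shallow copies of barcodes of the other pool were removed, and cells were assigned with HTODemux (Seurat 5.3.0, positive quantile 0.99: 8372 and 8831 singlets, 3830 and 4471 doublets, 971 and 1213 negatives in E5 and E6). Hashtags 8 and 9 are printed with the same tag sequence and mark the same condition. Cells were clustered with scanpy 1.11.5 (2000 variable genes without the members, 30 components, 15 neighbours, Leiden resolution 1.0) and named from fixed markers.

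For each class with at least 20 cells in a mouse, counts were added up over its cells and tested with edgeR 4.0.16 (TMM, filterByExpr, quasi-likelihood F test, condition plus pool, conditions with at least 3 mice), adjusted over all genes of a class and contrast. DESeq2 1.42.0 and the other alternatives are in the closing section, and the scripts were tested on simulated data. CPM was computed from the same sums. Fewer molecules per class limit precision, and thinned shares cover counting error only. Promoter windows come from RefSeq (GRCm38.p6). Per-mouse values are given for members past adjusted p 0.05 (up to 8), filled up to 4 by the smallest p, in monocyte-like and macrophage-like cells, and other genes only where called; the other genes named were chosen after their values were seen. The members and the gene lists were chosen with earlier results of these data known.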

Additional observations from a re-analysis of the deposited data

Results flagged for a closer look

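Of 60 groups of 4 mice checked for a single mouse far from the other 3 (Dixon's gap test at the 95% level), 2 stood out, and chance alone marks about 1 group in 20. In monocyte-like cells of floxed isotype mice, mouse 2 had Hilpda at 38.2 CPM, below the other 3 mice at 68.9 to 75.2 CPM. In macrophage-like cells of LysM-Cre isotype mice, mouse 3 had Aldoa at 657 CPM, above the other 3 at 407 to 445 CPM. With that mouse left out, 20 members had an unadjusted p under 0.05 between anti-PD-1 and isotype in LysM-Cre macrophage-like cells, in place of 9 (edgeR). The share over all genes is not given for that fit.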

How the results depend on the processing

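Alternatives that removed the filter on low counts, used DESeq2, another hashtag rule or a mitochondrial limit of 5%, kept the members among the clustering genes, dropped the pool or left out 1 mouse each were planned; keeping shallow copies, removing the top 5% of Scrublet scores, leaving out the cluster led by Slpi, Mmp12, Cxcl3 and Inhba and adding the intermediate cluster were chosen after seeing the data. Removal of Scrublet doublets was not run, since it called only 5 cells (0.0291%). The counts below are members past the adjusted test unless said otherwise, the mice are few, and the cause of a difference was not tested.

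Anti-PD-1 in floxed monocyte-like cells, 1 in the main analysis, gave 12 without the filter (368 of 18176 genes called in all), 5 with DESeq2 (42 of 8839), and 0 with another hashtag rule or without the cluster. At an unadjusted p under 0.05 the 23 (beside 10.1% of all genes) became 7 without the cluster (beside 6.26%). With 1 mouse left out they became 9 to 28 (0 to 1 past the adjusted test). The floxed Ndrg1 call, log2 1.89, was 0.88 without the cluster, where the member median was 0.23. Leaving out the cluster also dropped mouse 2 of the floxed anti-PD-1 condition from every monocyte-like fit. In LysM-Cre monocyte-like cells the 0 became 1 without the filter (137 of 18176 genes). The 0 at an unadjusted p became 5 without the filter (5.17% of all genes), 1 with another hashtag rule (5.43%) and 2 with shallow copies (4.91%). It became 3 without the cluster (4.64%) and 0 to 2 with 1 mouse left out. The median was -0.16 without the cluster and -0.12 to 0.13 with 1 mouse left out, and without the cluster Hilpda turned to -0.51. Over both genotypes the 1 (of 7 genes called in all) became 8 without the filter (435 of 18176 genes) and 4 with DESeq2 (88 of 8839). It became 0 with another hashtag rule, without the cluster or without the replicate block of pools, and 0 to 2 with 1 mouse left out. The pairing by pool changed no other count by over 1.5 times. Between genotypes given anti-PD-1, without the filter, the 0 became 3 (83 of 18176 genes) and the 9 became 18 (5.71% of all genes). With 1 mouse left out the 9 became 2 to 13. For the interaction the 0 became 4 without the filter (64 of 18176 genes), with 2 to 17 at an unadjusted p with 1 mouse left out.

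In macrophage-like cells the floxed 0 became 2 with DESeq2 (102 of 9702 genes). The 8 at an unadjusted p (beside 13.7% of all genes) became 13 without the filter (9.83%) and 5 to 10 with 1 mouse left out. The LysM-Cre 0 became 4 without the filter (215 of 17846 genes) and 1 with DESeq2 (3 of 9702). The 9 (beside 4.89% of all genes) became 15 without the filter (5.68%), 3 with another hashtag rule (5.65%) and 4 with shallow copies (3.73%). With 1 mouse left out they became 5 to 20. Over both genotypes the 1 (of 24 genes called in all) became 9 without the filter (486 of 17846 genes) and 4 with DESeq2 (97 of 9702). It became 0 with another hashtag rule, shallow copies or the Scrublet limit, and 0 to 3 with 1 mouse left out. Between genotypes with isotype the 0 became 2 without the filter (99 of 17846 genes). Elsewhere the lack of a filter gave 1 in neutrophil-like cells (between genotypes given anti-PD-1), 1 in CD8 T-like cells (both genotypes), and 1, 1 and 2 in fibroblast-like cells (floxed, LysM-Cre, both). Counts over all genes are not given for these fits, so these calls do not set the members apart from other genes. Against monocyte-like cells, the 7 members lower in neutrophil-like cells became 15 without the filter (5410 of 18750 genes lower), 14 with DESeq2 (3441 of 6419) and 4 without the cluster (2708 of 6403). Members higher in CD8 T-like cells went from 0 to 1 without the cluster (3181 of 8190 genes higher) or with members kept in the clustering (3259 of 8490). In fibroblast-like cells they went from 1 to 2 without the cluster (4039 of 9504).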
